A study of Mus musculus with 6 samples.

Results

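Autophagy genes were compared between undifferentiated and dexamethasone-differentiated CAD cells. The group holds 48 genes, picked by symbol for the steps of autophagy from initiation to fusion, for its cargo receptors, for receptors of mitochondria and for the MiT/TFE transcription factors that control lysosomal genes. The files list 55536 genes in all. CAD cells are a male mouse CNS line of catecholaminergic type, derived by SV40 transformation, on a mixed C57BL/6 and DBA/2 background. Both groups are of this line. The undifferentiated group was grown in 8% serum, and the dexamethasone group was kept for 5 days in 100 µM dexamethasone, a synthetic glucocorticoid, with 1% serum. The labels call the undifferentiated group proliferative and give it no day. Steroid, serum and growth state therefore changed together, and perhaps time in culture, and their parts in a difference cannot be told apart. Each group has 3 mRNA libraries of 1 line, and the labels do not say whether these came from separate cultures, so p-values measure the spread between these libraries, which may be technical.

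Autophagy carries parts of the cytoplasm to the lysosome. The ULK kinase complex starts the process, and a class III PI3-kinase complex then marks the site where a membrane, fed by ATG9 vesicles and by ATG2, grows around the cargo. A pair of ubiquitin-like conjugation systems attaches the ATG8 proteins (LC3 and GABARAP) to that membrane, where receptors tie cargo to them, and the closed autophagosome fuses with a lysosome. Neurons rely on this route to clear proteins and mitochondria from cells that no longer divide. TFEB, TFE3 and MITF are factors that switch on lysosomal and autophagy genes when they enter the nucleus.

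The files gave 6411105 to 8757992 counted reads per library. CPM here is the read count scaled to a common library size with TMM factors, and 3 reads in a library correspond to 0.327 to 0.487 CPM. Of 13 catecholaminergic and neuronal markers, 13 were tested, 6 were higher and 6 lower with dexamethasone, and their summed level was 3840 to 3920 CPM in the undifferentiated libraries and 11700 to 13700 CPM with dexamethasone. The higher sum is that of Chgb, a granin of dense-core vesicles, which went from a mean of 1028 to 10000 CPM. The other 12 genes summed to 2770 to 2890 CPM undifferentiated and 2440 to 2540 CPM with dexamethasone, and Dbh, which makes noradrenaline from dopamine, fell from a mean of 164.8 to 12.5 CPM. Markers of other cell types were at or near the floor for astrocytes (0.974 to 1.27 and 0.664 to 1.19 CPM summed over 4 genes) and microglia (0 to 0.707 and 0 to 0.149 CPM over 4 genes, with Cx3cr1 at 0). The summed levels were 2.97 to 4.22 and 2.53 to 4.25 CPM for 4 oligodendrocyte genes, with Mog and Mag at 0. The 3 endothelial genes summed to 18.3 to 21.3 CPM undifferentiated and 33.3 to 35.6 CPM with dexamethasone, most of it Pecam1. The 4 fibroblast genes summed to 9.74 to 13.3 and 18.2 to 20.2 CPM. Of these Dcn rose from a mean of 8.30 to 17.6 CPM, while the collagen genes had means of 2.00 and then 1.27 CPM (Col1a1) and 0.770 and then 0.268 CPM (Col1a2). The part of these other markers in the results was not tested. Mitochondrial rRNA took 0.0634 to 0.0883% of reads in undifferentiated libraries and 0.195 to 0.243% with dexamethasone. Its part was not tested either.

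Most of the autophagy genes were higher with dexamethasone. Of the 48 genes, 45 had reads and were tested by edgeR's quasi-likelihood test, and 33 of them rose, 4 fell and 8 did not pass an adjusted p of 0.05. The same test called 40.3% of all 12664 tested genes higher and 38.6% lower. Among the 45 autophagy genes, chosen with earlier results of these data known, the shares were 73.3% and 8.89%. Rises of at least 2-fold were found for 17 of them and falls of that size for 0, where all tested genes gave 17.8% and 12.2%. The median log2 fold change of the 45 was 0.64, or 1.56-fold, against 0.017 over all tested genes. All 3 dexamethasone libraries lay above all 3 undifferentiated ones for 34 of the 45 genes and below them for 4, beside 41.0% and 38.9% of all tested genes. The rises ranged from under 1.5-fold in 9 genes and 1.5 to 2-fold in 7, to 2 to 4-fold in 13 and at least 4-fold in 4, which were Calcoco1, Pink1, Gabarapl1 and Wipi1. Levels of the 45 genes ran from 5.519 CPM for Atg4c in 1 undifferentiated library to 1928 CPM for Sqstm1 in 1 dexamethasone library. The coefficient of variation within a group had a median of 5.94% undifferentiated and 5.07% with dexamethasone. In a bulk sample, fewer cells that express a gene and less of its RNA per cell cannot be told apart, and protein and autophagic flux were not measured.

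**Figure D1:**
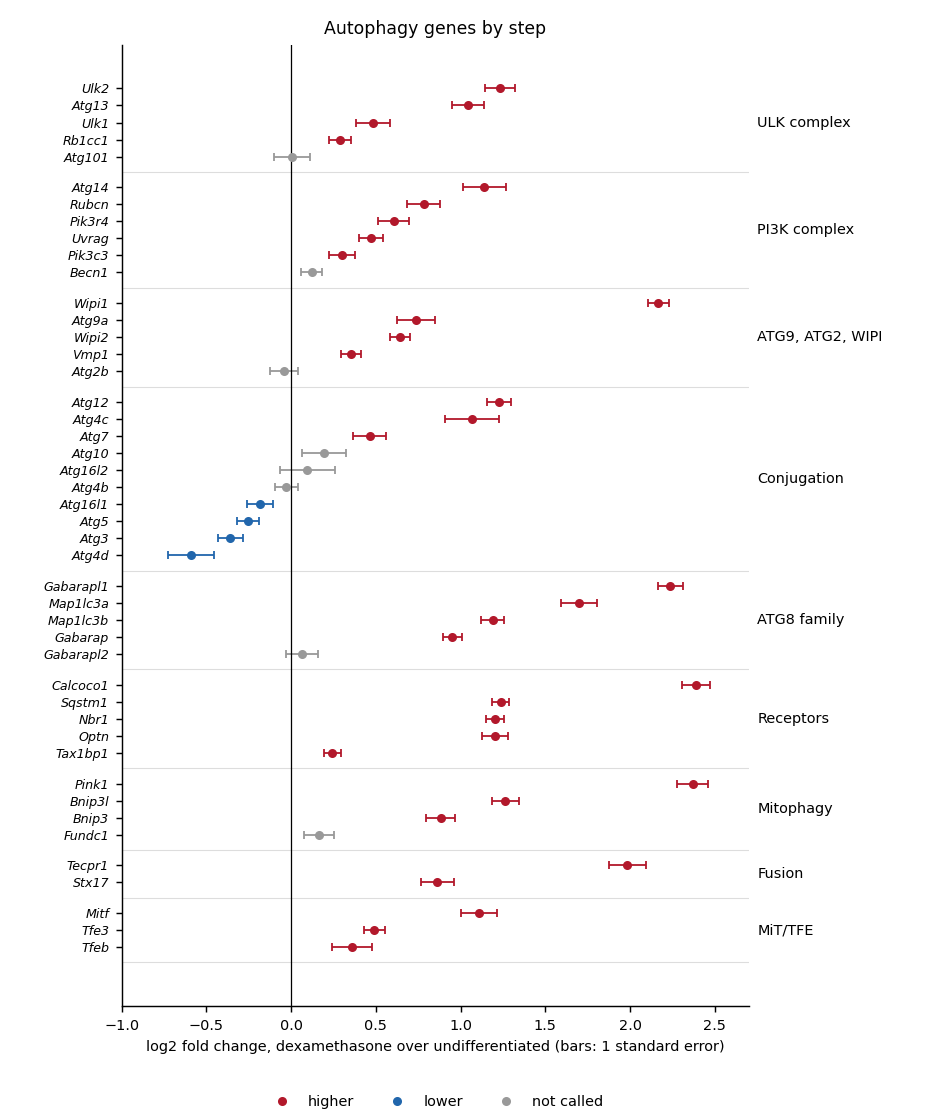
Log2 fold change of each tested autophagy gene, dexamethasone over undifferentiated, with bars of 1 standard error from edgeR (3 libraries a group), arranged by step. The 4 falls all lie among the 10 tested conjugation genes, and in each other step the called genes lie to the right of 0.

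The start of the pathway rose in part. In the ULK complex 4 of 5 genes rose (median log2 fold change 0.48). Ulk2, one of the paralogous kinases that start autophagy, had 20.63, 18.74 and 20.78 CPM in the undifferentiated libraries and 48.61, 47.85 and 44.08 CPM with dexamethasone. The groups did not overlap, and the level rose 2.35-fold (log2 1.23 ± 0.088 SE, edgeR adjusted p = 6.69e-13). Ulk1, its paralog, had 21.06, 19.37 and 23.05 CPM and then 28.01, 31.83 and 28.29 CPM, a 1.40-fold rise (adjusted p = 7.69e-05). Ulk2 held 50.7 ± 1.12% of the summed CPM per kilobase of exon of the pair in undifferentiated cells and 63.4 ± 1.72% with dexamethasone (SD, n = 3). An exact two-sided permutation test gave p = 0.1 for that share, the smallest p that 3 against 3 libraries can give. Atg13, the regulatory subunit that links the kinases to the complex, rose 2.06-fold from 20.49, 21.67 and 16.56 CPM to 39.53, 40.11 and 42.74 CPM (adjusted p = 1.38e-10). Rb1cc1, which encodes the scaffold FIP200, rose 1.22-fold (adjusted p = 0.000265). Atg101, which stabilises ATG13, had 23.58 to 30.1 CPM in undifferentiated libraries and 23.69 to 30.23 CPM with dexamethasone, with overlapping groups (log2 0.01 ± 0.11 SE, adjusted p = 0.954).

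In the PI3-kinase complex 5 of 6 genes rose and none fell (median log2 fold change 0.54). Atg14, the subunit that sends the complex to autophagy, had 9.186, 9.687 and 11.04 CPM and then 24.47, 20.28 and 20.7 CPM. It rose 2.20-fold (log2 1.14 ± 0.13 SE, edgeR adjusted p = 5.84e-09), and its groups did not overlap. Rubcn, which encodes Rubicon, an inhibitor that binds the UVRAG form of the complex, rose 1.72-fold (29.4, 21.41 and 27.11 to 41.74, 46.33 and 45.27 CPM, adjusted p = 3.58e-08). Uvrag, the subunit that takes the place of ATG14 in the endosomal form, rose 1.39-fold (adjusted p = 1.47e-06). The lipid kinase gene Pik3c3 rose 1.23-fold (adjusted p = 0.00119) and its regulatory subunit Pik3r4 1.52-fold (adjusted p = 1.29e-06). Becn1, the core subunit Beclin 1, was the member that did not pass. It had 133.1, 137.4 and 159.9 CPM against 151.9, 154.9 and 160.4 CPM, with overlapping groups and a log2 fold change of 0.12 ± 0.061 SE (adjusted p = 0.0719). Its call depends on single libraries, since the adjusted p was 0.0057 without undifferentiated replicate 3 and 0.039 without dexamethasone replicate 1.

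Wipi1 stood out among the genes that feed the growing membrane, where 4 of 5 tested genes rose (median log2 fold change 0.64). WIPI1 and WIPI2 bind the lipid that the PI3-kinase makes. Wipi1 (chromosome 11, 109573331 to 109611967, minus strand, GRCm38) had 37.17, 39 and 43.02 CPM and then 182.6, 176.3 and 174.5 CPM. The lowest dexamethasone library lay above every undifferentiated one, and the gene rose 4.49-fold (log2 2.17 ± 0.064 SE, edgeR adjusted p = 2.07e-21). Wipi2, which recruits ATG16L1 to the site, rose 1.56-fold from 86.35, 87.82 and 93.67 CPM to 131.5, 145.1 and 140.9 CPM (adjusted p = 1.22e-10). Per kilobase, Wipi1 held 51.5 ± 0.81% of the pair's sum undifferentiated and 75.3 ± 1.32% with dexamethasone (SD, n = 3, exact two-sided permutation p = 0.1, the smallest possible), while that sum went from 17.5 to 53.5 CPM per kilobase. Atg9a, which encodes a lipid scramblase of the seed vesicles, rose 1.67-fold (adjusted p = 1.2e-06), and 31.8% of its exon bases are also annotated to Gm29253 on the same strand, so reads there were not assigned to it. Vmp1, an endoplasmic reticulum scramblase, rose 1.28-fold (adjusted p = 3.48e-06). Atg2b, a lipid transfer protein, had 39.29 to 47.08 CPM and 40.65 to 45.13 CPM (log2 -0.04 ± 0.082 SE, adjusted p = 0.637).

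All 4 falls were among the conjugation genes, of which 3 of 10 tested rose (30%), 4 fell (40%) and 3 did not pass, with a median log2 fold change of 0.03. These shares lie near those of all tested genes, 40.3% higher and 38.6% lower. The rises were those of Atg12, Atg4c and Atg7. Atg12, the ubiquitin-like protein that is joined to ATG5, had 31.94, 33.39 and 34.09 CPM and then 80.05, 75.11 and 77.28 CPM, with no overlap (2.34-fold, log2 1.23 ± 0.071 SE, edgeR adjusted p = 7.35e-15). Its partner Atg5 moved the other way, from 67.84, 67.93 and 67.86 CPM to 56.91, 55.92 and 58.37 CPM. That is a fall of 1.19-fold (log2 -0.25 ± 0.065 SE, adjusted p = 0.000962), lost with an adjusted p of 0.0765 when libraries are scaled by their totals alone. Atg16l1, which binds the ATG12-ATG5 conjugate and places it on the membrane, had 43.67, 46.01 and 45.78 CPM and then 39.42, 37.17 and 43.18 CPM. The groups did not overlap, and the fall was 1.14-fold (log2 -0.18 ± 0.079 SE, adjusted p = 0.0347). This call was lost without undifferentiated replicate 2 (adjusted p = 0.0997), undifferentiated replicate 3 (0.0733), dexamethasone replicate 1 (0.0611) or dexamethasone replicate 2 (0.189).

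The enzymes of the conjugation step were divided as well. Atg7, the activating enzyme shared by both systems, rose 1.38-fold from 25.3, 21.92 and 19.48 CPM to 31.11, 30.52 and 30.68 CPM (edgeR adjusted p = 0.000114). Atg3, the enzyme that passes ATG8 proteins on to lipid, fell 1.28-fold from 53.28, 55.7 and 57.3 CPM to 45.4, 40.99 and 43.18 CPM (log2 -0.36 ± 0.073 SE, adjusted p = 7.4e-05). Atg10, the corresponding enzyme for ATG12, did not pass, with 11.85 to 17.1 CPM and 15.49 to 17.72 CPM (adjusted p = 0.17). ATG4 proteases process ATG8 proteins and release them from lipid. Atg4c rose 2.10-fold, from 7.066, 6.118 and 5.519 CPM to 13.84, 12.1 and 13.55 CPM (adjusted p = 7.91e-07). Atg4d fell 1.51-fold, from 19.08, 15.68 and 15.1 CPM to 10.08, 11.77 and 11.32 CPM (log2 -0.59 ± 0.13 SE, adjusted p = 0.000256). Atg4b, the most abundant of the Atg4 genes with reads, had 57.74 to 61.9 CPM and 56.14 to 62.67 CPM (adjusted p = 0.723). The sum of these Atg4 genes per kilobase was 11.4 ± 0.747 and 12.5 ± 0.544 CPM per kilobase (SD, n = 3). Within it Atg4c went from 16.4 ± 1.10% to 31.4 ± 1.28% and Atg4d from 20.1 ± 1.25% to 12.2 ± 1.48%, each with an exact two-sided permutation p of 0.1, the smallest possible. Atg16l2, a paralog of Atg16l1, had 7.914 to 8.279 and 7.74 to 9.828 CPM (adjusted p = 0.598).

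Atg2a, Atg4a and Epg5, a tether of autophagosomes to lysosomes, are listed at 0 in all 6 libraries. Among the related genes Nrbf2, Calcoco2 and Tfec are also at 0. So are Nup43 and Mrpl53, looked up after the values were seen, which encode a nuclear pore and a mitochondrial ribosome subunit that cells generally use. A listed 0 is therefore given as such, with no level drawn from it. A count of 0 allows up to 3 reads, which is 0.327 to 0.487 CPM by library and covers counting error only. Of the 75-base windows in Atg4a exons, 41.3% also occur in the pseudogene Atg4a-ps.

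The ATG8 family rose in 4 of 5 genes, with a median log2 fold change of 1.19. Gabarapl1 (chromosome 6, 129533160 to 129542346, plus strand) had 25.58, 32.12 and 28.57 CPM and then 140.3, 135.2 and 132.1 CPM. Its groups lay far apart, and it rose 4.71-fold (log2 2.24 ± 0.074 SE, edgeR adjusted p = 2.13e-20). Map1lc3a, which encodes LC3A, rose 3.25-fold, from 15.4, 13.13 and 13.31 CPM to 39.86, 46.11 and 50.93 CPM (adjusted p = 4.17e-14). Map1lc3b, which encodes LC3B, the usual protein marker of autophagosomes, rose 2.28-fold, from 53, 54.93 and 49.35 CPM to 110.6, 119.5 and 130.6 CPM (adjusted p = 7.4e-15). Gabarap had 92.43, 96.1 and 94.48 CPM and then 189.1, 182.6 and 174.7 CPM (1.93-fold, adjusted p = 6.88e-15). Gabarapl2 alone in the family did not pass: 40.84, 39.13 and 38.64 CPM and then 39.53, 35.86 and 50.18 CPM overlapped, with a log2 fold change of 0.06 ± 0.096 SE (adjusted p = 0.542). Of the 75-base windows of Gabarapl2 and Map1lc3b, 9.53% and 4.07% occur in other genes, so part of their reads could not be placed.

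CPM per kilobase divides by all annotated exon bases of a gene, which need not be the length of the transcript in use. That length was 7517 bases for Map1lc3b and 1181 to 2325 for the other ATG8 genes, so shares across genes rest on it. On this scale the summed ATG8 level was 101 ± 1.84 undifferentiated and 239 ± 3.12 CPM per kilobase with dexamethasone (SD, n = 3), 2.36 times as high. The make-up of that sum differed between the groups. Gabarapl1 held 12.6, 15.4 and 14.2% undifferentiated and 29.3, 28.4 and 27.1% with dexamethasone. Gabarap, the largest share in both groups, went from 50.5 ± 0.714% to 41.4 ± 2.08%, and Gabarapl2 from 16.8 ± 0.613% to 7.53 ± 1.23%. Map1lc3a went from 11.7 ± 1.16% to 16.2 ± 1.82%. The exact two-sided permutation p was 0.1 for each of these 4 shares, the smallest that 6 libraries allow. Map1lc3b had 6.89 ± 0.274% and 6.69 ± 0.489%, with overlapping groups (exact two-sided permutation p = 0.7). Its small share depends on its long annotated length. In CPM without length, Map1lc3b had a mean of 120.2 with dexamethasone, beside 135.8 for Gabarapl1 and 182.1 for Gabarap. The shares in 1 family sum to 100% and do not vary independently.

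**Figure D2:**
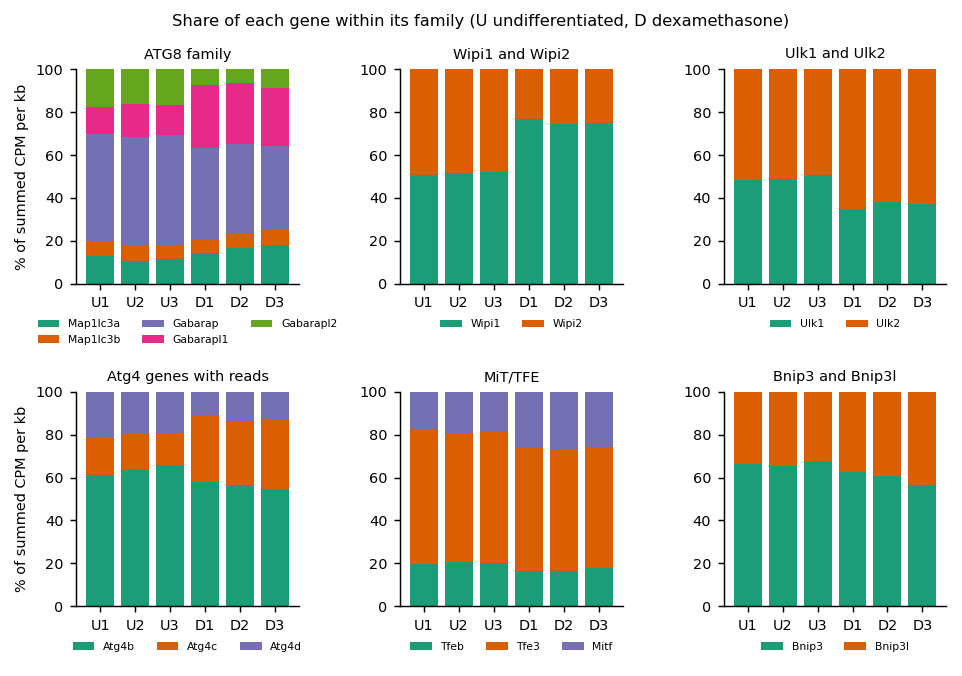
Share of each gene in the summed CPM per kilobase of its family, in %, for each undifferentiated (U1 to U3) and dexamethasone (D1 to D3) library. Gabarapl1, Wipi1, Ulk2, Atg4c and Mitf take a larger share in each dexamethasone library than in any undifferentiated one.

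All 5 receptor genes rose (median log2 fold change 1.20), by amounts that ranged from 1.18-fold to 5.23-fold. These receptors bind cargo on one side and ATG8 proteins on the other. Calcoco1 (chromosome 15, 102706777 to 102722178, minus strand), whose product is a receptor for endoplasmic reticulum and Golgi, had 23.74, 18.99 and 21.27 CPM and then 106.6, 107.7 and 120.9 CPM. Its groups did not overlap, and its 5.23-fold rise (log2 2.39 ± 0.083 SE, edgeR adjusted p = 6.8e-20) was within 1 standard error of that of Pink1, the next in size. Sqstm1 (chromosome 11, 50199366 to 50210827, minus strand), which encodes p62, a receptor for ubiquitinated cargo, had 800.9, 780.4 and 750.0 CPM and then 1746, 1820 and 1928 CPM. The groups did not overlap and the level rose 2.36-fold (log2 1.24 ± 0.049 SE, adjusted p = 1.62e-18). Nbr1, which works with p62, rose 2.30-fold, from 116, 122.2 and 124.3 CPM to 284.8, 277.1 and 272.7 CPM (adjusted p = 1.19e-17). Optn, optineurin, a receptor for ubiquitinated mitochondria and bacteria, rose by the same fold, 2.30, from 26.85, 26.64 and 25.49 CPM to 59.57, 63.22 and 59.27 CPM (adjusted p = 7.41e-14). Tax1bp1, a relative of CALCOCO1 that binds ubiquitinated aggregates, rose least, 1.18-fold, from 203.4, 207.4 and 211.5 CPM to 259.6, 238 and 238.3 CPM (adjusted p = 0.000129).

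Of the 4 mitophagy genes 3 rose (median log2 fold change 1.07). Pink1 (chromosome 4, 138313409 to 138326307, minus strand) encodes the kinase that accumulates on damaged mitochondria and marks them for removal. It had 15.83, 13.13 and 14.12 CPM and then 71.2, 77.5 and 73.26 CPM, with no overlap. The rise was 5.16-fold (log2 2.37 ± 0.089 SE, edgeR adjusted p = 3.95e-19). Bnip3l and Bnip3 encode receptors in the outer mitochondrial membrane that bind ATG8 proteins without ubiquitin. Bnip3l rose 2.40-fold, from 25.44, 24.85 and 24.51 CPM to 59.24, 59.3 and 61.5 CPM (adjusted p = 2.62e-14). Bnip3 rose 1.84-fold, from 29.25, 27.79 and 29.71 CPM to 57.69, 53.74 and 47.35 CPM (adjusted p = 3.4e-10). Of their 75-base windows, 16.9% (Bnip3l) and 11.4% (Bnip3) occur in other genes, the pseudogene Bnip3l-ps among them. Bnip3l made up 33.6 ± 0.912% of the pair per kilobase undifferentiated and 40.1 ± 2.90% with dexamethasone (SD, n = 3, exact two-sided permutation p = 0.1, the smallest possible). Fundc1, a further outer membrane receptor, did not pass, although 29.68, 29.57 and 25.81 CPM undifferentiated all lay below 30.78, 32.27 and 32.76 CPM with dexamethasone (log2 0.16 ± 0.089 SE, adjusted p = 0.093).

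**Figure D3:**
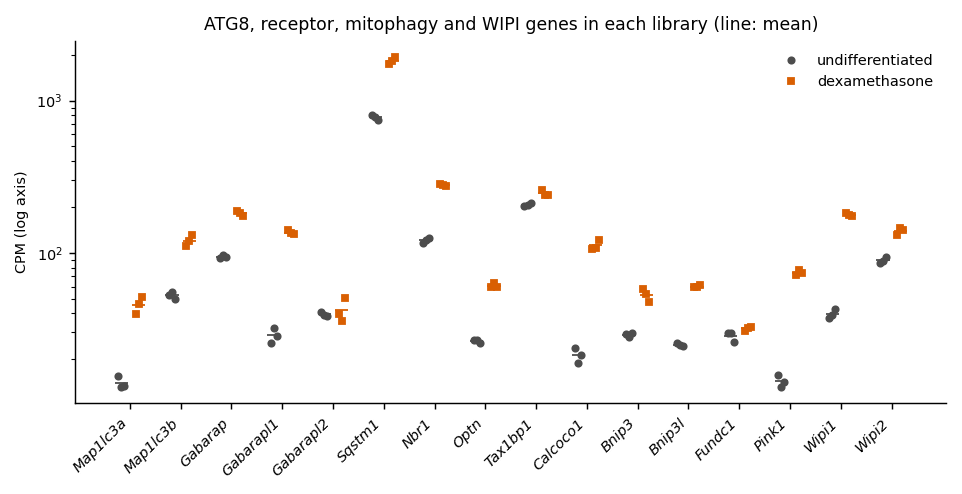
CPM (log axis) in each library for ATG8, receptor, mitophagy and WIPI genes, with a line at each group mean (3 libraries a group). Dexamethasone libraries lie above the undifferentiated ones for every gene plotted except Gabarapl2, whose groups overlap, and Sqstm1 is the highest throughout at 750.0 to 1928 CPM.

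Both tested fusion genes rose. Tecpr1 (chromosome 5, 144194442 to 144223615, minus strand), which links the ATG12-ATG5 conjugate to the lysosome side, had 12.44, 9.304 and 12.18 CPM and then 41.96, 47.2 and 43.93 CPM. It rose 3.96-fold (log2 1.98 ± 0.11 SE, edgeR adjusted p = 1.64e-15), with no overlap. Stx17, the SNARE of completed autophagosomes, rose 1.82-fold from 16.11, 17.72 and 17.05 CPM to 31.22, 29.76 and 31.72 CPM (adjusted p = 6.96e-09).

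All 3 MiT/TFE factor genes rose, Mitf by the largest fold and Tfeb by the smallest. Mitf had 12.86, 14.02 and 15.42 CPM and then 29.45, 30.63 and 30.97 CPM, a 2.16-fold rise (log2 1.11 ± 0.10 SE, edgeR adjusted p = 1.68e-10). Tfe3 had 69.11, 66.4 and 74.67 CPM and then 96.99, 96.15 and 101.7 CPM, a 1.40-fold rise (log2 0.49 ± 0.063 SE, adjusted p = 7.06e-08). Tfeb had 13.28, 13.89 and 14.93 CPM and then 17.16, 17.33 and 19.66 CPM, a 1.28-fold rise (log2 0.36 ± 0.12 SE, adjusted p = 0.0078). None of the 3 had overlapping groups. Per kilobase, Tfe3 was the most abundant in both groups, with 61.4 ± 1.26% and 56.8 ± 0.522% of the sum. Mitf went from 18.5 ± 0.863% to 26.2 ± 0.613% and Tfeb from 20.1 ± 0.463% to 17 ± 0.705% (SD, n = 3, exact two-sided permutation p = 0.1 for each, the smallest possible). These factors are regulated largely by their place in the cell, which mRNA levels do not show.

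MiT/TFE factors are known to bind the E-box CACGTG, so promoters of the autophagy genes were searched for it. RefSeq promoter windows (GRCm38.p6, 250 bases before to 50 after each start) were matched by symbol to 40 of the 48 genes, with 52 windows. At least 1 E-box, a palindrome that reads the same on both strands, was found for 6 of the 40 genes (15%), beside 8.09% of all 27025 genes with a window. The 6 were Atg14, Rubcn, Atg7 and Bnip3, which rose, and Atg3 and Atg5, which fell. Of the matched genes that rose, 4 of 28 (14.3%) had the motif, as did 2 of the 10 (20%) that fell or did not pass. The 28 genes had 39 windows and the 10 genes had 10, and per window the shares were 10.3% and 20%. The E-boxes of Atg14, Rubcn and Atg7 lie inside the annotated gene, and those of Bnip3, Atg3 and Atg5 outside it. The extended form GTCACGTG, which overlaps the E-box and was searched on both strands, was in 3 of the 40 genes (7.5%) and in 2.55% of all. Among 12 matched lysosomal genes, from a list chosen with earlier results of these data known, 7 (58.3%) had the E-box and 4 (33.3%) the extended form. The FOXO motif TGTTTAC and the consensus glucocorticoid response element, searched on both strands, were in 0 of the 52 windows, against 3.65% and 0.00913% of all 32851 windows. The antioxidant response element core TGACNNNGC, also searched on both strands, was in 6 of the 40 genes (15%), with 14% of all genes. It was in 6 of the 28 matched genes that rose (21.4%) and 0 of the 10 that fell or did not pass. Per window that was 8 of 39 (20.5%) and 0 of 10, beside 12.4% of all windows. With only 10 windows, a count of 0 does not set these genes apart. A match is a run of letters and not a bound site, and a window without a match says nothing about the factor.

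The windows below show the E-boxes in capitals, 5′ to 3′ on the strand of the gene, for the genes that fell (Atg3 and Atg5), for a gene that rose (Bnip3) and for the lysosomal membrane gene Lamp1 (1.29-fold higher), and they show 100 bases before the start of the strong rises Calcoco1 and Tecpr1, where no E-box was found. They were taken from RefSeq (GRCm38.p6). Atg3 lies at chr16:45158715-45158783 (plus strand), Atg5 at chr10:44268305-44268338 (plus), Bnip3 at chr7:138909589-138909634 (minus), Lamp1 at chr8:13159080-13159160 (plus), Calcoco1 at chr15:102722179-102722278 (minus) and Tecpr1 at chr5:144223616-144223715 (minus), each outside the annotated gene. Atg3 holds 2 E-boxes and Lamp1 holds 4.
Atg3: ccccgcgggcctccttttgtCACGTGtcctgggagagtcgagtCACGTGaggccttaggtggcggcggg
Atg5: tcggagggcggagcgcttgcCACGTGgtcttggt
Bnip3: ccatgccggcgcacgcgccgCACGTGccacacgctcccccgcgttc
Lamp1: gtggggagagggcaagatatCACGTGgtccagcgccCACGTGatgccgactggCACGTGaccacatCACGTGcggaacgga
Calcoco1: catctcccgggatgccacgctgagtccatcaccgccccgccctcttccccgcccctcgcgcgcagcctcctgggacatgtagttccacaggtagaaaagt
Tecpr1: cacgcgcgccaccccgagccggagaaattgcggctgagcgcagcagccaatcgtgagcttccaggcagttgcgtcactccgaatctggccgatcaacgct

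Across the autophagy genes the order of levels per kilobase, which rests on the annotated exon length of each gene, changed at several places. Sqstm1 was the highest per kilobase in both groups, at 231.6 ± 7.63 and 545.7 ± 27.4 CPM per kilobase (SD, n = 3), and Gabarap the next, at 51.2 ± 0.998 and 98.8 ± 3.92. Gabarapl1 moved from rank 11 of 45 to rank 3 (14.3 ± 1.63 and 67.5 ± 2.06 CPM per kilobase), Wipi1 from 15 to 5 (9.01 ± 0.679 and 40.3 ± 0.962) and Pink1 from 25 to 8 (5.37 ± 0.511 and 27.7 ± 1.20). Wipi1 and Nbr1, which took ranks 5 and 4 with dexamethasone, were within their spreads of each other (40.3 ± 0.962 and 40.5 ± 0.893 CPM per kilobase). Atg5 moved the other way, from rank 3 to 10 (28.9 ± 0.0218 and 24.3 ± 0.524 CPM per kilobase). Tecpr1, despite its 3.96-fold rise, stayed among the lowest, at 0.885 ± 0.136 and 3.47 ± 0.207 CPM per kilobase.

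**Figure D4:**
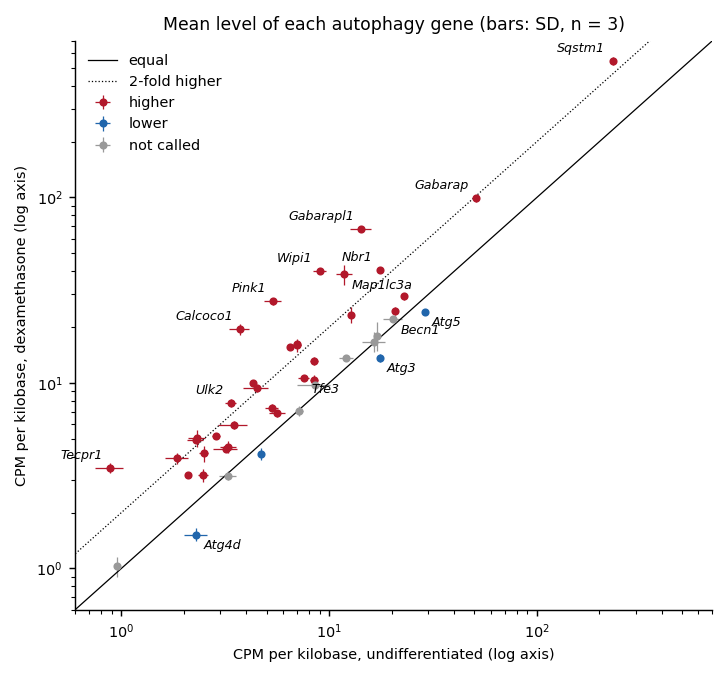
Mean CPM per kilobase of each tested autophagy gene, undifferentiated against dexamethasone, both on log axes, with bars of 1 SD (n = 3). Points above the solid line were higher with dexamethasone. The 17 genes that rose at least 2-fold lie above the dotted line, Calcoco1, Pink1, Gabarapl1, Wipi1 and Tecpr1 farthest from it, and the 4 falls lie below the solid line.

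A further 67 genes around the pathway were listed, and 63 were tested. These lists were chosen with earlier results of these data known, so their counts are descriptive. Of the 63 genes 50 rose (79.4%), 10 fell (15.9%) and 3 did not pass. The shares over all tested genes were 40.3% higher and 38.6% lower. The median log2 fold change was 0.55, beside 0.017 over all tested genes. In the lysosome list 18 of 18 rose, with a median of 1.30. Rises of at least 2-fold were found for 12 of the 18, where all tested genes gave 17.8%. The cathepsin genes Ctsl and Ctsd rose 5.62-fold and 3.90-fold, and Gaa, acid alpha-glucosidase, 3.82-fold, and their adjusted p-values from edgeR were the smallest in the list. On the same strand 34.4% of Ctsd exon bases are also annotated to Gm49369, and reads there were not assigned. Among 12 other autophagy genes 7 rose (58.3%) and 4 fell (33.3%), and the share of falls lies near that of all tested genes. Trp53inp1, a target of p53 that binds ATG8 proteins, had 1.27, 1.53 and 1.62 CPM undifferentiated and 64.2, 70.4 and 68.2 CPM with dexamethasone, a 45.5-fold rise. Its paralog Trp53inp2 rose 4.46-fold and Zfyve1, which marks the membrane site of formation, 3.71-fold. The kinase gene Tbk1, which phosphorylates optineurin, fell 1.58-fold, from 133.2 ± 2.07 to 84.5 ± 2.37 CPM (SD, n = 3). Wdr45b, a WIPI relative, fell 1.39-fold and Sh3glb1, a partner of UVRAG, 1.27-fold.

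Of 12 other receptor genes 9 rose (75%) and 3 fell (25%), beside 40.3% and 38.6% of all tested genes. Retreg1, a receptor for endoplasmic reticulum, rose 10.6-fold, from 2.12 ± 0.265 to 22.8 ± 1.36 CPM (SD, n = 3), and the receptor genes Tex264 and Rtn3 for the same organelle rose 2.51-fold and 1.41-fold. The 3 that fell were receptors of mitochondria: Phb2, 2.08-fold, Fkbp8, 1.33-fold, and Bcl2l13, 1.16-fold. In contrast to these, Pink1, Bnip3 and Bnip3l rose, as given above. Of 11 tested fusion genes 8 rose (72.7%) and 2 fell (18.2%). Vps11, Vps39 and Vps18 of the HOPS tether rose 1.73-fold, 1.68-fold and 1.90-fold. The SNARE Ykt6 and the tether gene Vps16 fell 1.30-fold and 1.28-fold. Of 10 tested genes listed around TFEB and its control, Zkscan3 among them, 8 rose (80%) and 1 fell (10%). Flcn and Fnip1, which form a complex that acts on Rag GTPases, rose 2.08-fold and 2.02-fold, and Rragd, one of those GTPases, 2.17-fold. Ppp3cb, a catalytic subunit of calcineurin, the phosphatase that frees TFEB for the nucleus, fell 1.54-fold.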

How the data were processed

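Libraries were made from total RNA after mRNA selection and sequenced with 75-base reads, per the labels' protocols. The authors' deposited values are raw whole-number counts per gene, made with featureCounts 1.6.4 over exons of Ensembl release 96 with the strand setting 1, per the file headers. That step has no option for reads that map to several places or genes, so reads shared by near-identical genes are lost or misplaced. The submitters' processing notes also name HISAT2 2.2.0, DESeq2, Trim Galore 0.6.4, Subread 1.6.4 and FastQC 0.11.9, without their roles.

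Genes passing filterByExpr (minimum count 10, total 15), 12664 in all, were scaled by TMM and tested with edgeR 4.0.16 (R 4.3.3, quasi-likelihood, group as the only term), with Benjamini-Hochberg adjustment over all of them and a threshold of 0.05. The common biological coefficient of variation was 4.41%. Standard errors were derived from each log2 fold change and its F statistic. CPM per kilobase used the annotated exon length. Pairs of replicates all exceeded counting noise, with chi-square over degrees of freedom from 1.65 to 3.19. Member and related genes, and the rule naming up to 3 genes per related list and direction by adjusted p, given 1 CPM or more in either group, were chosen with earlier results of these data known. Alternatives included RLE, upper quartile and total-count scaling, other filters, DESeq2 1.42.0 and limma 3.58.1. The code was tested on simulated counts in which 200 genes changed. Far more genes were called in these data, so that test does not bear on the scaling. Protein sequences were not used here.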

Additional observations from a re-analysis of the deposited data

How the results depend on the processing

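None of the 33 rises and 4 falls among the autophagy genes changed direction under any alternative run. The count of falls went from 4 to 2 with libraries scaled by their totals alone, which moved the median log2 fold change of all genes by 0.13 (0.10 with upper quartile factors). Becn1, Atg10 and Fundc1 then also passed, at adjusted p = 0.000676, 0.0276 and 0.00513 under library totals (edgeR). A test against a fold of 1.5 left 5169 of all tested genes, 21 rises and 0 falls among the autophagy genes, and 28 rises and 1 fall among the related genes. It cost 16 autophagy genes their call, by the construction of the test. Without 1 library at a time, called genes numbered 9712 to 9933, autophagy rises 33 to 34 and falls 3 to 4, and related rises 47 to 50 and falls 9 to 11. Dexamethasone minus undifferentiated shares differed by 13.4 to 14.8 points for Gabarapl1, 4.84 to 7.67 for Bnip3l and -5.20 to -3.97 for Tfe3. Correlations of deviations between the groups were -0.125, 0.0352 and -0.0841 for the same replicate numbers, and -0.0511 to 0.125 for different numbers. Deviations of 3 libraries from their group mean sum to 0, so this check cannot exclude a pairing or a shared batch. With a replicate block 9820 genes were called, with 33 rises and 3 falls among the autophagy genes and 50 and 10 among the related genes. DESeq2 gave 33 rises and 3 falls. The loss was Atg16l1 in both (adjusted p = 0.0544 and 0.0879), whose adjusted p ranged from 0.0149 to 1 over all alternatives. Depth limits values near 3 reads.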
